A study of Drosophila melanogaster with 6 samples.

Results

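The control embryonic macrophages are 3 of the 6 samples of sorted Drosophila melanogaster macrophages in the series, chosen by their sample labels alone, and all 17494 genes listed for them were taken. The embryos were w; +; srpHemo-Gal4, srpHemo-3xmCherry/+, so that the srpHemo fragment drove both Gal4 and 3 copies of the red fluorescent protein mCherry in macrophages, with no UAS transgene. They were collected at 29°C and aged to stage 11 by the sample labels and to stage 11 to early stage 12 by the study's methods. mCherry-positive cells were sorted by flow cytometry, each sample was a pool of many embryos, and the RNA of the sorted pool was sequenced. The other 3 samples, which in addition carried a dominant negative form of the transcription factor Dfos, enter no value given here except where a setting or an exon length is said to rest on all 6 samples.

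The GATA factor Serpent sets up the blood cell lineage of the fly embryo, and most of its cells become plasmatocytes, the macrophages of the fly. These cells engulf dying cells with receptors of the Nimrod and CD36 families. They also secrete much of the collagen IV, laminin and other proteins of the embryonic basement membrane, which makes them secretory cells with an active endoplasmic reticulum. A second blood cell type, the crystal cell, holds prophenoloxidases for melanization, and another, the lamellocyte, appears in larvae after wasp attack.

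Levels are given as transcripts per 1e+06 (TPM), in which the reads of a gene are divided by its exon length and scaled so that a sample sums to 1e+06. In the deposited values every number of 1 or more had lost its decimal point, which was put back from the gene's exon length and the fact that reads are whole. Between 7426 and 7540 values per sample were affected. For these the power of 10 that made the 3 samples most probable together was taken, and 246 genes with a probability under 0.9 for their least certain value were set aside. Of the 21657 values of 1 or more that were kept, 4.45% stood above the smallest power that gives whole reads. With the uncertain genes counted in, the restored values summed to 996865, 995225 and 996655 TPM, against the 1e+06 that was not used in the restoration. The kept genes held 9391502, 9780856 and 8688491 reads. Because the power was chosen for agreement between the samples, a gene that differed near 10-fold between them could be restored wrongly or set aside, and the agreement reported below is in part built in.

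Of the genes listed, 6519 were at 0 in all 3 samples, 10685 were restored and above 0 in at least 1 sample, and 44 were not restored. Of these 44, 38 had no annotated length, 5 had no length that gave whole reads and 1 was refused because its reads shared a factor. A total of 7851 genes had at least 1 read in every sample, of which 7528 were protein-coding. Single reads are listed as values above 0, so a listed 0 is 0 reads, which allows an expected count of up to 3 reads in a library. For a gene of 1000 exon bases this limit lies between 0.374 and 0.416 TPM. Of the protein-coding genes, 6881 had a mean of 1 TPM or more, 3699 of 10 TPM or more, 743 of 100 TPM or more and 128 of 1000 TPM or more. Over the 9724 restored protein-coding genes above 0, the median level was 4.81 TPM. The transcriptome was concentrated, in that 50 genes held 50% of the protein-coding TPM and 955 genes held 90%.

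Genes of the cytoplasmic ribosome made up most of the abundant protein-coding transcripts. Genes named RpL or RpS, which encode the proteins of the large and the small subunit, held 52.3%, 52.2% and 52.8% of all TPM in the 3 samples, a mean of 52.4% ± 0.297% (SD, n = 3). Of the 92 genes with such a name, 91 were restored or listed at 0, 87 had reads in every sample and 83 had a mean of 100 TPM or more, with a median of 4458 TPM over the 91. RpL41, which encodes the smallest protein of the ribosome, stood highest with 59467, 52158 and 53255 TPM. RpL23 followed with 37876, 40604 and 37809 TPM, and the ranges of the pair did not overlap. The members under 10 TPM were duplicate or tissue-restricted copies, such as RpS19b with 3.20, 8.99 and 6.46 TPM and RpS28a with 3.30, 3.28 and 6.84 TPM, while RpL10Aa, RpL7-like and RpS28-like were listed at 0. RpL37b was set aside, with at least 338, 14 and 68 reads. The 25 most abundant protein-coding genes held 32.1% ± 0.123% of TPM (SD, n = 3), and 24 of them were ribosomal protein genes, with means between 6845 and 54959.9 TPM.

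**Figure D1:**
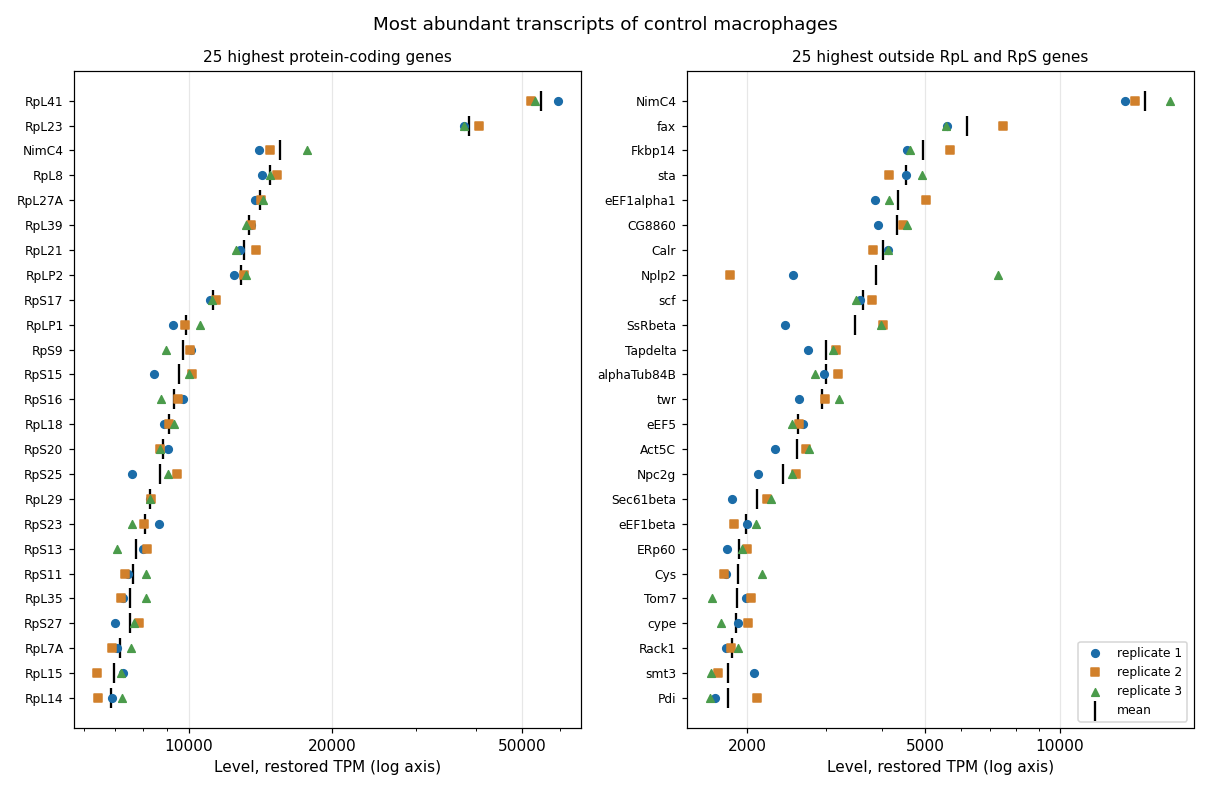
The level of the most abundant protein-coding genes in each control sample, in restored TPM on a log axis. The left panel holds the 25 highest genes, 24 of them for ribosomal proteins, and the right panel the 25 highest outside the RpL and RpS genes, with a point per sample and a bar at the mean. NimC4 ranks 3 in the left panel at a mean of 15506 TPM, and Nplp2 shows the widest spread, with 2528, 1823 and 7278 TPM.

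The exception among the 25 was NimC4, also known as simu, a Nimrod receptor that macrophages use to bind apoptotic cells. It had 14028, 14781 and 17709 TPM, from 143341, 151908 and 163678 reads, and ranked 3 of the restored protein-coding genes at a mean of 15506 ± 1945 TPM (SD, n = 3). In each of the 3 samples it lay above every other restored protein-coding gene outside the RpL and RpS names. Genes set aside as uncertain, such as PPO2, Hsp23, Hsp26 and awd, given below with their lower bounds, were not placed in this order. The next was fax (failed axon connections), known for its part with the Abl kinase in axon growth, which had 5584, 7478 and 5554 TPM. The ranges of NimC4 and fax did not overlap.

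Below these, the highest genes outside the RpL and RpS names had means from 3475 to 4956 TPM, and each overlapped with its neighbour in the order. Fkbp14, a prolyl isomerase of the endoplasmic reticulum, had 4561, 5678 and 4628 TPM. The gene sta encodes a protein of the small ribosomal subunit under another kind of name and had 4518, 4139.8 and 4921 TPM. Translation elongation factor eEF1alpha1 had 3851, 5017 and 4155 TPM, the first of which was placed 1 power of 10 above its smallest. These 3 genes could not be put in order beyond the spread of their samples.

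CG8860, which has no name beyond its number, had 3916, 4469 and 4558 TPM. Calr, the calcium-binding chaperone calreticulin, had 4129, 3818 and 4125 TPM, and scf, another calcium-binding protein, had 3581, 3791 and 3506 TPM. Both differed little between the samples, with a coefficient of variation (CV, the SD as a share of the mean) of 4.44% and 4.08%. Nplp2, named as a neuropeptide-like precursor, had 2528, 1823 and 7278 TPM, so that the third sample lay far above the others. SsRbeta, a subunit of the signal sequence receptor at the translocon, had 2432, 4021 and 3973 TPM, with the first sample low.

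Further down the same order stood Tapdelta, a second subunit of that receptor, at 3002 ± 237 TPM (SD, n = 3), and twr, a subunit of signal peptidase, at 2933 ± 301 TPM (SD, n = 3). Sec61beta, of the translocon itself, averaged 2104 ± 228 TPM, and the disulfide isomerase ERp60 averaged 1913 ± 97.6 TPM (SD, n = 3 each). Npc2g, of a family of secreted lipid-binding proteins, averaged 2400.1 ± 251 TPM (SD, n = 3). These genes were picked out after their values were seen, as were cype, a cytochrome c oxidase subunit, at 1886 ± 130.5 TPM and Rack1, a ribosome-bound scaffold, at 1847 ± 57.1 TPM (SD, n = 3 each). Ilp4, an insulin-like peptide, averaged 1219 ± 145 TPM (SD, n = 3).

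The genes for collagen making and protein secretion, a list of 11, summed to 9909.8, 11612 and 10889 TPM in the 3 samples. All 11 genes had a mean above 10 TPM and 10 had one above 100 TPM, with a median of 465 TPM, against 4.81 TPM over all restored protein-coding genes above 0. After Calr the highest were Pdi, a disulfide isomerase that is also part of collagen prolyl hydroxylase, at 1689, 2096 and 1649 TPM, and Hsc70-3, the chaperone BiP, at 965, 2042 and 1780.4 TPM. Hsc70-3 was lower in the first sample than in the other two. The collagen lysyl hydroxylase Plod had 453, 439 and 572 TPM and the prolyl hydroxylase subunit PH4alphaEFB had 143, 174 and 172 TPM. Tango1, which loads collagen at exit sites of the endoplasmic reticulum, had 60.4, 63.2 and 59.2 TPM and was the lowest of the list.

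The order of levels depended on the division by length. The study's methods name a kit that reads the 3′ end of each transcript, while the sample labels give a standard protocol, and reads from 3′ ends do not grow in number with length. The 25 genes highest in TPM had exon lengths from 288 to 1315 bases with a median of 754, against a median of 2039 bases over protein-coding genes at 1 TPM or more. Counted as reads per 1e+06 reads (RPM) with no division, the share of ribosomal protein genes was 33.9% ± 0.502% (SD, n = 3), and 17 of the 25 highest genes were shared by both orders.

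In RPM fax came first with 21152 ± 3511 (SD, n = 3), and NimC4 again ranked 3 with 16277 ± 2000.2. The genes that entered the 25 by this measure were fax, eEF1alpha1, Fkbp14, Act5C, Calr and the ribosomal protein genes RpL10, RpS2 and RpS7. eEF1alpha1 had 8751 ± 1107 RPM and Fkbp14 had 7299 ± 836. Act5C, a cytoplasmic actin, had 6294 ± 535, and Calr had 5529 ± 308 (SD, n = 3 each).

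Among genes known only by a CG number, the 5 highest were CG8860, CG32276, CG2852, CG4440 and CG9669. CG32276 had 1636, 1772 and 1983 TPM and CG2852 had 1749.5, 1371 and 1623 TPM. CG4440 had 1846, 1533 and 1326 TPM, and CG9669, which the later annotation names kud, had 1149.7, 1295 and 1299.8 TPM. Their CVs were between 6.83% and 16.7%.

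The markers that the label macrophage rests on were all present, at levels that spanned a wide range. Besides NimC4 the order by mean TPM was Col4a1, crq, vkg, Pxn and srp. In RPM it was Col4a1 at 2199, vkg at 1487, Pxn at 1211, crq at 685 and srp at 108. Col4a1 and vkg encode the chains of collagen IV and lie next to each other on chromosome 2L, at 5029609 to 5037279 and 5012144 to 5028191 in the BDGP6.54 annotation. Col4a1 had 333, 339 and 635 TPM, and vkg had 209, 195 and 434 TPM. In both genes the third sample was the high one, and the first and second were close together.

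The CD36-family receptor crq (croquemort), on chromosome 2L from 448254 to 453024, had 257, 304 and 321 TPM. Pxn, the matrix peroxidase peroxidasin, on chromosome 3L from 2601455 to 2630064, had 258, 218 and 269 TPM. The ranges of crq and vkg overlapped, as did those of vkg and Pxn, so these genes could not be ordered by TPM. Col4a1 was above crq in every pairing of samples.

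The GATA factor srp, on chromosome 3R from 15986152 to 16004085, whose regulatory fragment drives the sorting marker, had 16.8, 24.8 and 28.2 TPM from 758, 1129 and 1153 reads. Its exon length was taken from the values, since the annotated one gave no whole reads. It was the lowest of the 6 markers, ranking 2302 of the protein-coding genes by TPM and 1112 by RPM. All 6 markers were highest in the third sample, beside 28.5% of all protein-coding genes at 1 TPM or more. In pooled RNA of this kind, a lower share of macrophages and less of a transcript per macrophage cannot be told apart.

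**Figure D2:**
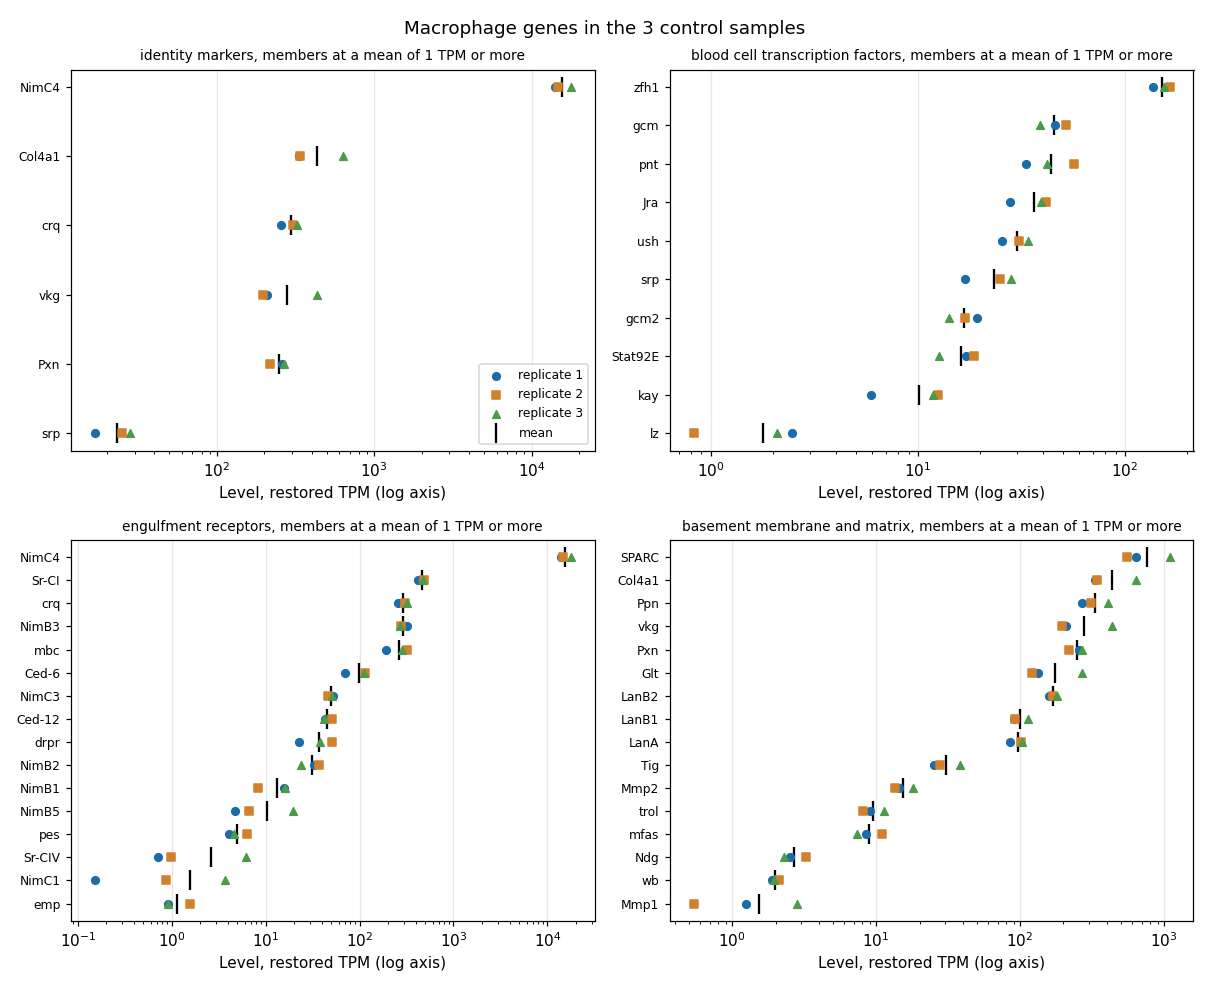
Levels of macrophage genes in each control sample, in restored TPM on log axes, for members of 4 lists with a mean of 1 TPM or more. Each point is a sample and the bar is the mean. NimC4 stands apart from the other receptors, and SPARC, Col4a1, vkg and Glt are high in the third sample.

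Of 10 blood cell transcription factors, 9 had a mean of 10 TPM or more, and the median was 26.7 TPM. The highest was zfh1, a zinc finger homeodomain repressor, at 136, 164 and 153 TPM, apart from all others. Then came gcm (glial cells missing), which with gcm2 directs plasmatocyte and glial fate, at 45.8, 51.6 and 38.6 TPM. gcm2 had 19.3, 16.8 and 14.1 TPM, lower than gcm in every sample.

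The ranges of gcm, the ETS factor pnt, the Jun homologue Jra, the GATA cofactor ush and srp formed a run in which neighbours overlapped. ush, which with srp represses crystal cell fate, had 25.6, 30.9 and 33.8 TPM, and Jra had 27.8, 41.5 and 39.2 TPM. kay, which encodes Dfos, the partner of Jra in AP-1, had 5.93, 12.6 and 11.8 TPM, with the first sample low. The Runx factor lz (lozenge), which specifies crystal cells, was the lowest at 2.46, 0.827 and 2.08 TPM.

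Engulfment receptors and their adaptors summed to 15464, 16489 and 19375 TPM, nearly all of it NimC4. Of 22 members, 20 were restored, 16 had a mean of 1 TPM or more and 12 of 10 TPM or more, with a median of 22.2 TPM. After NimC4 came the class C scavenger receptor Sr-CI at 422, 485 and 469 TPM, whose first value was placed 2 powers above its smallest. NimB3, a secreted Nimrod, had 322, 278 and 273 TPM, of which the second was placed 1 power up. The pair set aside were NimB4, another secreted Nimrod, with at least 901, 90 and 1428 reads, and the scavenger receptor Sr-CII with at least 103, 76 and 20 reads.

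Draper (drpr), the receptor that signals through ced-6 to clear dying cells and axons, had 22.8, 50.7 and 37.5 TPM. Its adaptor ced-6 had 69.7, 113 and 111 TPM, and mbc, the exchange factor for Rac downstream of engulfment receptors, had 189, 317 and 284 TPM. In all 3 genes the first sample was the lowest. Receptors known from larval plasmatocytes were low, with the third sample highest. NimC1 had 0.152, 0.871 and 3.67 TPM and eater had 0, 0.0378 and 2.65 TPM. NimA, Sr-CIII and NimC2 stayed under 1 TPM in every sample.

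Basement membrane and matrix genes summed to 2238, 2166 and 3587 TPM, so that the third sample exceeded the others by more than their difference from each other. Of 17 members, 16 had a mean of 1 TPM or more, and 13 of these 16 were highest in the third sample. Of all protein-coding genes at that level, 28.5% were highest in the third sample. SPARC, a collagen-binding calcium protein of the matrix, had 638, 551 and 1094 TPM, and glutactin (Glt) had 133, 122 and 268 TPM. Papilin (Ppn), a secreted matrix proteoglycan, had 269.6, 311 and 407 TPM. With a probability limit of 0.99 in place of 0.9, SPARC, Glt, Col4a1 and vkg were set aside. The mean sum of the list was then 1013 TPM in place of 2663 TPM.

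The laminin genes differed less between samples. LanB2, the gamma chain, had 158, 169.5 and 180.2 TPM, LanB1, the beta chain, had 90.7, 92.7 and 114 TPM, and LanA, an alpha chain, had 85.2, 101 and 103 TPM. The other alpha chain, wb, had 1.88, 2.13 and 1.94 TPM, under LanA in every sample. Tig (tiggrin), an integrin ligand, averaged 30.4 ± 6.64 TPM, while perlecan (trol) and nidogen (Ndg) averaged 9.49 ± 1.68 TPM and 2.70 ± 0.502 TPM (SD, n = 3 each). Of the matrix metalloproteases, Mmp2 averaged 15.3 ± 2.40 TPM and Mmp1 1.54 ± 1.18 TPM (SD, n = 3 each). The order of the matrix genes depended on the division by length. In RPM the means were 2572 for Ppn, 2199 for Col4a1, 923 for LanA, 820 for LanB2, 749 for SPARC and 510 for LanB1. By mean TPM SPARC stood highest of the list. The long trol ranked 788 of the protein-coding genes by RPM, against 3768 by TPM.

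Cytoskeletal and migration genes were among the higher lists, with a sum of 7851, 9219 and 9288 TPM over 21 members and a median of 136 TPM. Act5C had 2299, 2700.4 and 2747 TPM and Act42A, a near-identical actin, had 1359, 1415 and 1585 TPM, and reads shared by the actin genes may be split between them in a way that is not given in the sources used here. Profilin (chic) had 800.3, 1209 and 1094 TPM, and cofilin (tsr) had 816, 845 and 891 TPM. Fascin (sn), which bundles actin in filopodia, had 725, 886 and 828 TPM, with the first and the third value placed 1 power up.

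Of the small GTPases, Rac2 had 393, 435 and 418 TPM, above Rac1 with 236, 267 and 211 TPM, though these paralogs are alike in sequence. Cdc42, another of these switches of the actin cytoskeleton, averaged 98.8 ± 5.27 TPM (SD, n = 3). The receptor Pvr, which guides macrophage migration, had 40.5, 55.5 and 59.3 TPM, and its ligand Pvf3 averaged 24.6 ± 4.23 TPM, above Pvf2 at 2.56 ± 0.679 TPM and Pvf1 at 0.513 ± 0.228 TPM (SD, n = 3 each).

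Adhesion genes were lower, and their sum was close between samples at 221, 219.8 and 219.6 TPM. Of 12 members, 9 had a mean of 10 TPM or more and none reached 100 TPM. The integrin beta chain mys had 29.6, 39.9 and 38.5 TPM. The alpha chains scb, if and mew averaged 24.1 ± 2.68 TPM, 13.1 ± 4.53 TPM and 10.3 ± 1.71 TPM (SD, n = 3 each). The second beta chain, Itgbn, averaged 0.489 ± 0.449 TPM (SD, n = 3), under mys in every sample. The integrin-bound proteins Ilk and stck averaged 41.9 ± 10.8 TPM and 40.9 ± 3.81 TPM (SD, n = 3 each), and talin (rhea) averaged 5.85 ± 0.923 TPM (SD, n = 3). With 11083 exon bases, rhea ranked 2005 of the protein-coding genes by RPM, against 4566 by TPM.

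Lysosomal and degradative genes were well represented. The list of 12 summed to 3608, 4227 and 4111 TPM, with a median of 169 TPM and 11 members at 10 TPM or more. The thiol reductase GILT2 had 1164, 1173 and 1387 TPM, and the protease cathepsin B (CtsB) had 969, 971 and 834 TPM. Cathepsin L (Cp1) had 319.9, 842 and 756 TPM, so that the first sample was under both others. Vacuolar ATPase genes, which acidify such compartments, summed to 2564, 2659 and 2618 TPM over 34 names, 19 of which had reads in every sample and 9 of which were listed at 0, mostly copies with another number in their name such as Vha16-2 and Vha100-3.

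Proteasome genes summed to 2439, 2063 and 2665 TPM, with 31 of 48 names at 10 TPM or more and Prosbeta7 the highest at 196 ± 21.5 TPM (SD, n = 3). Prosalpha1, a subunit that the proteasome of every cell needs, was listed at 0 in all samples together with CG30382, its duplicate. A listed 0 is therefore not proof that a gene was silent.

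Antimicrobial peptide genes were low. Of 14, 6 were listed at 0 and 2 had reads in every sample. Those were Mtk (metchnikowin) with 64.6, 100.1 and 27.4 TPM, from 138, 215 and 53 reads, and Drs (drosomycin) with 7.46, 6.45 and 30.5 TPM, from 23, 20 and 85 reads. The second sample was high for Mtk and the third for Drs.

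Cell cycle genes all had a mean of 1 TPM or more, and 7 of 16 had one of 10 TPM or more. Their median was 7.91 TPM, against 4.81 TPM over all restored protein-coding genes above 0. The Cdc25 phosphatase string (stg), which triggers entry into mitosis, was the highest with 276, 259.8 and 214 TPM. CycA had 64.3, 52.5 and 51.5 TPM and the cyclin-dependent kinase inhibitor dap, which stops the cycle, had 55.9, 61.8 and 49.1 TPM. CycE averaged 1.23 ± 0.377 TPM and the replication helicase genes ranged from Mcm5 at 2.45 ± 1.26 TPM to Mcm7 at 8.37 ± 3.07 TPM (SD, n = 3 each). Of the 16 members, 10 were highest in the first sample, beside 40.2% of all protein-coding genes at 1 TPM or more.

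Of 48 entries in 9 lists of markers of other tissues, 35 had reads in every sample. A mean of 1 TPM or more was seen for 20 and of 10 TPM or more for 8, and none reached 100 TPM. Over all 13887 protein-coding genes listed, 7528 had reads in every sample. Of the same 13887 genes, 6881 had a mean of 1 TPM or more, 3699 of 10 TPM or more and 743 of 100 TPM or more. Fat body and yolk markers summed to 1.10, 0.113 and 0.824 TPM, and neither Lsp2 nor Lsp1alpha, which encode larval serum proteins, had a read. Germline markers summed to 4.94, 3.50 and 2.87 TPM and midgut markers to 6.80, 3.99 and 2.70 TPM. Of 5 neuroblast markers 1 reached a mean of 1 TPM, mira at 5.60 ± 1.25 TPM (SD, n = 3), while dpn, ase and wor stayed under 1 TPM in every sample.

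Among the neuron markers, elav, an RNA-binding protein, had 20.1, 16.8 and 11.6 TPM, while Syt1, nSyb and brp of the synapse all stayed under 1 TPM. Glia markers summed to 119.8, 138 and 129 TPM, and the defining factor repo had 0.544, 0.167 and 0 TPM, from 13, 4 and 0 reads. The sum came from moody, a receptor of the blood-brain barrier, at 84.0, 95.9 and 90.4 TPM, from loco at 19.7, 25.2 and 24.5 TPM and from nrv2 at 15.6, 16.8 and 13.6 TPM. The level of moody was thus far above that of repo in every sample, and its 3 samples were close together.

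Muscle and mesoderm markers summed to 43.6, 55.0 and 53.8 TPM, led by the muscle actin Act57B at 11.1, 22.9 and 24.5 TPM and Mlc2 at 15.5, 11.3 and 12.1 TPM. Myosin heavy chain (Mhc) had 0.859, 0.537 and 0.873 TPM, and the mesoderm factor twi had 1.52, 1.25 and 0.639 TPM. Epidermis and trachea markers summed to 19.3, 8.61 and 10.6 TPM, with grh at 7.66, 3.72 and 3.97 TPM. Amnioserosa markers summed to 53.2, 29.7 and 26.0 TPM, of which Ance made up most with 33.6, 21.7 and 17.7 TPM, and zen was listed at 0. In both of the last lists the first sample was the highest, for 3 of 3 members at a mean of 1 TPM or more. Of all protein-coding genes at that level, 40.2% were highest in the first sample. Whether cells of these tissues were in the sorted pools was not tested.

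**Figure D3:**
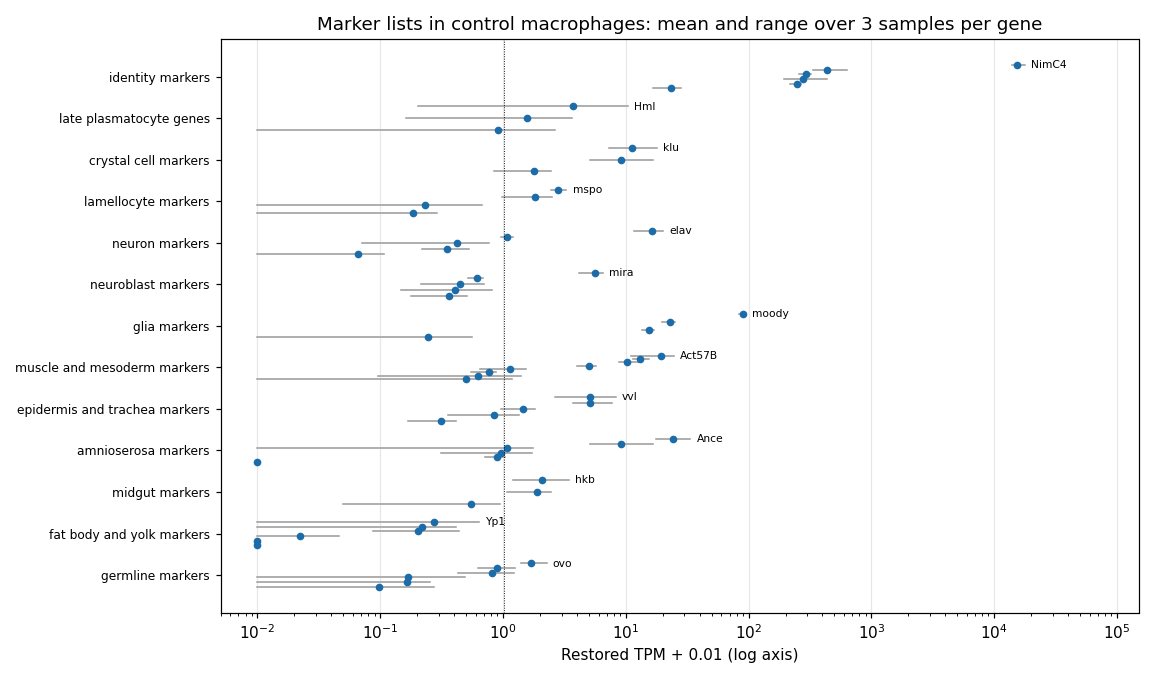
Levels of marker genes of macrophages, other blood cells and other tissues in the control samples, as restored TPM plus 0.01 on a log axis. Each point is the mean of a gene and the grey line its range over the 3 samples, genes set aside as uncertain are left out, the highest gene of each list is named, and the dotted line marks 1 TPM. The macrophage markers lie above 10 TPM, and most other markers shown under 10 TPM apart from moody, Ance, loco, Act57B, elav, nrv2 and a few more. The crystal cell markers PPO1 and PPO2 are not shown, and their lower bounds are above 10 TPM in every sample.

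Of the other blood cell types, lamellocyte markers summed to 3.66, 4.68 and 6.71 TPM, with atilla and PPO3 under 1 TPM in every sample. Of 5 crystal cell markers, 3 were restored and the 2 with the most reads were set aside. The restored ones, lz (given above), klu and peb, had means between 1.79 and 11.2 TPM. The prophenoloxidase gene PPO2 had at least 84335, 18095 and 2246 reads in the first, the second and the third sample, and PPO1 had at least 11126, 1359 and 4141 reads. These are the reads at the smallest power of 10, which are lower bounds. In TPM the bounds were 4641, 990 and 137 for PPO2 and 597, 72.5 and 246 for PPO1. By whole reads alone a value could be 10 or more times higher. For PPO2 in the first sample, a higher power added to the 980879 TPM of the kept genes would pass 1e+06 TPM. That total was not used to choose powers, and the order of the samples in PPO1 and PPO2 was not settled. Each sample nonetheless held at least 1359 reads of each gene. The crystal cell factors klu and peb had 17.9, 7.24 and 8.31 TPM and 16.6, 5.53 and 5.12 TPM, highest in the first sample, and peb also stands among the amnioserosa markers.

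Markers of later plasmatocytes differed widely between the samples. Hemolectin (Hml), a clotting protein, had 18, 52 and 878 reads, the first and second of which were intact values under 1 TPM, so that the third sample, taken at its smallest power, was at least 53.9 times the first. NimC1 had 4, 23 and 87 reads and eater had 0, 1 and 63 reads. Hemese (He) was set aside with at least 1, 15 and 176 reads, of which the first was intact. In Hml, NimC1 and eater the third sample held the highest value, also with every value at its smallest power. For He the order of the second and the third sample was not known.

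Across all restored protein-coding genes the 3 samples agreed closely. Pearson's r of log2(TPM + 1) was 0.971 between the first and second sample, 0.970 between the first and the third and 0.973 between the second and the third, over 9724 genes. Spearman's rank correlation was 0.940, 0.939 and 0.939. These describe genes within one experiment, which are not independent, and r also rests on the choice of powers. Among the 2130 protein-coding genes whose 3 values were all intact or 0, Pearson's r of TPM was only between 0.14 and 0.185, in a range of levels under 1 TPM where a gene had few reads.

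**Figure D4:**
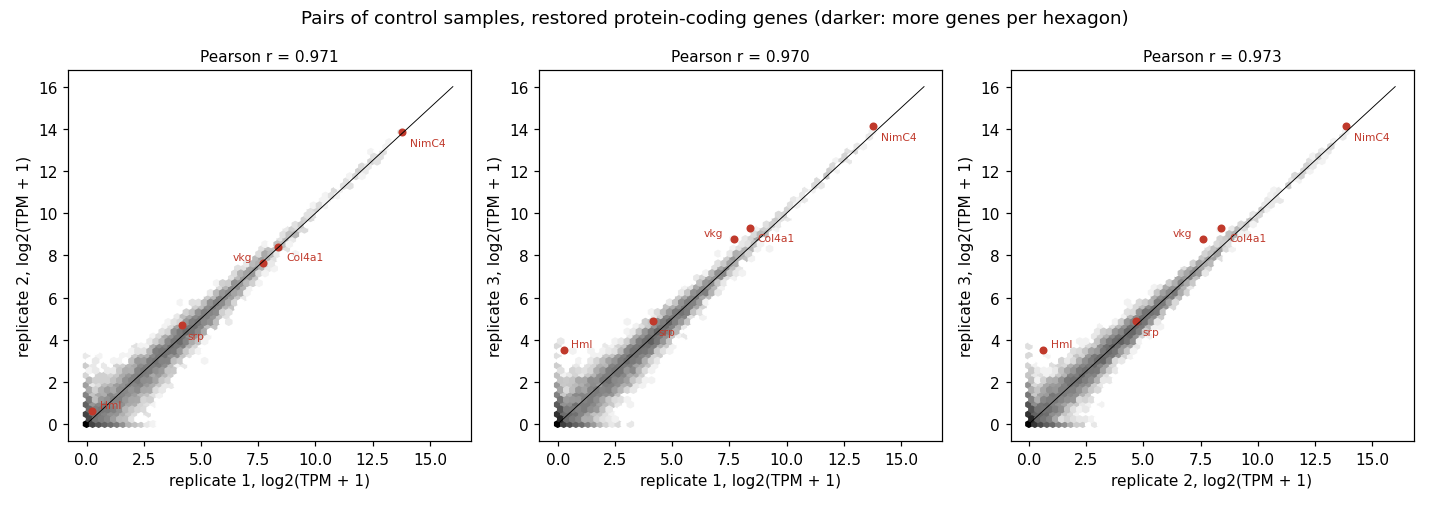
Levels of 9724 restored protein-coding genes in each pair of control samples, as log2(TPM + 1), with darker hexagons holding more genes and the line marking equal levels. Pearson's r is between 0.970 and 0.973. Hml, vkg and Col4a1 lie above the line in both panels with the third sample.

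The spread between samples was above what counting reads gives. Over the 3699 protein-coding genes with a mean of 10 TPM or more, the median CV was 14.4%, against a median of 4.29% expected from the number of reads alone. The median CV was 33.2% for genes from 1 to 10 TPM, 15.9% from 10 to 100, 10.6% from 100 to 1000 and 6.5% above 1000 TPM. The counting error fell from 12.3% to 0.6% over the same 4 ranges, so that it was the smaller share of the spread at every level.

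Of the 3699 genes, 237 differed 2-fold or more between their highest and lowest sample, and 67 had a CV over 50%. The first sample was the highest for 115 of the 237, the third for 72 and the second for 50. Over all protein-coding genes at 1 TPM or more, these shares were 40.2%, 28.5% and 31.3%. The first and second sample differed over 2-fold in 122 genes, the first and the third in 119 and the second and the third in 76. By these counts of pairs the first sample stood a little apart. The counts leave out the genes set aside as uncertain, some of which may differ strongly.

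**Figure D5:**
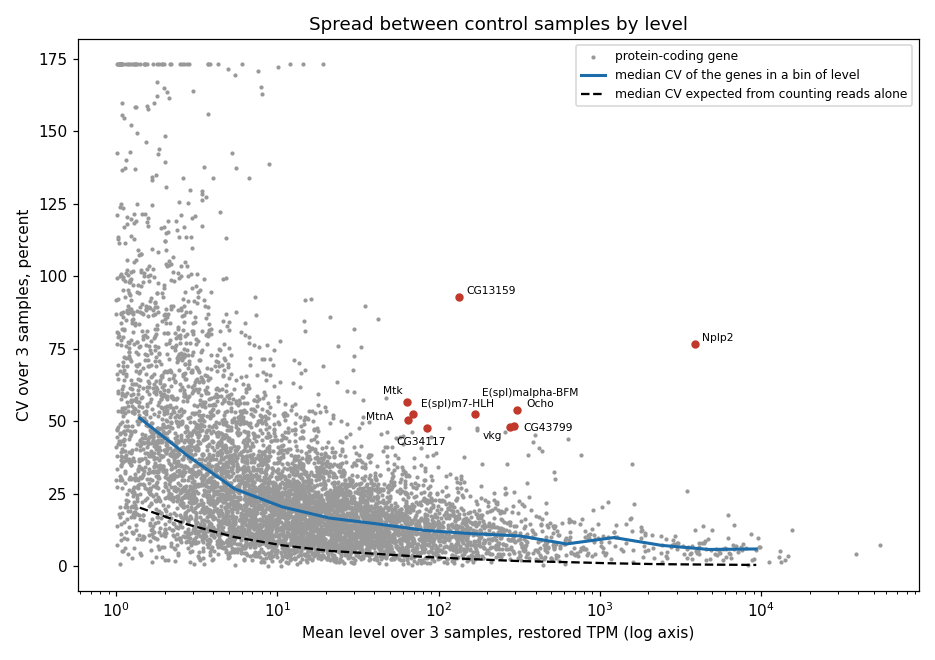
The CV over the 3 control samples against the mean level of each protein-coding gene with 1 TPM or more, with the median CV as a solid line and the CV expected from counting reads as a dashed line. The genes in red are the 10 with the largest CV among those with a mean of 50 TPM or more, and the row of points at the top are genes seen in a single sample. CG13159 has a CV of 92.9% and Nplp2 of 76.5%.

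The 10 genes with the largest CV at a mean of 50 TPM or more had CVs from 47.8% to 92.9%. CG13159 had 276, 55.5 and 68.1 TPM, with the first sample high. Next came Nplp2, given above, and Mtk. Metallothionein A (MtnA) had 72.4, 29.0 and 93.5 TPM, CG43799 had 278, 159.9 and 441 TPM, and CG34117 had 85.6, 44.0 and 125 TPM. In these 3 genes the second sample was the lowest and the third the highest. The list also held vkg.

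The remaining 3 genes of the 10 belong to families that respond to Notch signalling. Ocho had 496, 231 and 194 TPM, E(spl)m7-HLH had 112, 46.6 and 50.1 TPM, and E(spl)malpha-BFM had 267, 102 and 134 TPM. The first sample was above both others in each. Tom, a relative of Ocho, was picked out after its values were seen and had 571, 266 and 314 TPM. Over all protein-coding genes at 1 TPM or more, 40.2% were highest in the first sample. Of the 10 genes of the E(spl) complex with a mean of 10 TPM or more, 9 were highest in the first sample. Among these 9 were E(spl)m7-HLH and E(spl)malpha-BFM, which were met through their CV. The exception was E(spl)m3-HLH with 14.0, 11.7 and 15.7 TPM, and E(spl)m4-BFM differed little between samples, with 142, 128 and 138 TPM.

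Growth factors of the chitinase-like family were picked out in the same way. Idgf6 had 321, 317 and 615 TPM and Idgf2 had 167, 219 and 396 TPM, both highest in the third sample as were SPARC, Glt, Col4a1 and vkg. The third sample was 1.91 times the lowest for Col4a1, 2.21 times for Glt and 2.22 times for vkg. The labels give no batch, date or embryo age for the single samples, and whether any of these moved with the differences was not tested.

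Genes set aside as uncertain included some that may be abundant. After PPO2 the highest at their smallest powers were Hsp23 with at least 17515, 2507 and 10661 reads, Hsp26 with at least 1183, 11841 and 7007 reads and awd, a nucleoside diphosphate kinase, with at least 427, 5335 and 8153 reads. CG8157 had at least 73, 138 and 6182 reads. Of the other heat shock genes, Hsp83, the cytosolic Hsp90, had 551, 521 and 475 TPM and Hsp27 had 333, 311 and 159 TPM. Hsp70Bc had 37.2, 40.1 and 22.3 TPM, and since the Hsp70 genes are near-identical copies their reads may be split between them.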

How the data were processed

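Macrophages were sorted as mCherry-positive cells, and the control samples numbered 1 to 3 in their labels are called the first, the second and the third sample. Per the submitters' processing notes and the study's methods, the authors aligned reads to BDGP6 with STAR 2.5.1b and counted them with HTSeq 0.5.4p3 on FlyBase annotation. edgeR and limma, in R 3.4.4, are also named, for the authors' own comparison. The values the authors deposited are neither counts nor normalised counts but lie on the TPM scale, with intact values under 1 and 15 digits without a decimal point above.

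An intact value was a whole number of reads, within 1e-05, times a constant of the sample over the union exon length from the Ensembl BDGP6.54 annotation, for between 97.9% and 98.4% of intact values per sample. Lengths came from the annotation for 10758 genes by identifier and 46 by symbol. A further 127 genes got a length that made reads whole in all 6 samples, at most 25% from the annotation. The power of 10 was chosen with a negative binomial model of the 3 control samples, in which 5% of genes were given a dispersion of 1, and a gene whose 3 values shared a factor above 10 was set aside. The restoration was also run on simulated data without decimal points, drawn from the restored values of kept genes and the dispersion fitted to them. Such a run cannot show that the model holds for the deposited values, and no conclusion is drawn from it. The restoration favours agreement between samples.

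No test was run, since a single group is described, and values are means with SD over 3 samples. The study calls the samples biological replicates and states that embryos came from repeated collections and were kept cold in the meantime. Whether the samples came from separate embryo collections is not in the labels. Levels of neighbours in an order were called apart where their ranges did not overlap. Correlations used log2(TPM + 1). Genes named were the 25 highest protein-coding genes, the 10 highest outside the RpL and RpS names, the 5 highest CG numbers, the 10 with the largest CV at 50 TPM or more, genes that enter the 25 by RPM, and members of 29 lists with 533 entries. Only NimC4 of the 10 is among the 25. The members and lists were chosen with earlier results of these data known. No alternative power, limit, scale or left-out sample was added to those planned. Intervals of counting cover counting error only. Python 3.11.15, NumPy 2.4.6, SciPy 1.17.1, pandas 2.3.3 and matplotlib 3.10.9 were used.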

Additional observations from a re-analysis of the deposited data

How the results depend on the processing

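Of 331 values under alternatives for 40 results, 253 moved by less than 1 SD between the samples (for counts of genes, by less than 1.5 times) and 78 by more, of which 32 were in RPM. These are values with no test, and the cause of each move was not tested beyond what the alternative itself changes. With the smallest power for every value and no gene set aside, the share of the 25 most abundant genes was 31.3%, that of ribosomal protein genes 49.7%, the lowest Pearson r 0.912 and the median CV 19.3%. Summed TPM came then for late plasmatocyte genes to 19.2, crystal cell markers to 2249.6, guidance and migration to 7002, adhesion to 195, dosage compensation to 121, Hsp genes to 3339 and vacuolar ATPase to 2534. With a probability limit of 0.99, the ribosomal share was 52.0%, r was 0.973 and the median CV 13.3%. Summed TPM of the genes kept came for basement membrane and matrix to 1013, collagen making and secretion to 9208, crystal cell markers to 1.79, guidance and migration to 6746, adhesion to 160.4, lysosome and degradation to 3157, antimicrobial peptides to 6.17, muscle and mesoderm markers to 40.5, amnioserosa markers to 2.91, dosage compensation to 101, Hsp genes to 709.7 and proteasome to 1922, and Col4a1 and vkg were among the genes it set aside. With no limit, r was 0.966, and summed TPM came for late plasmatocyte genes to 19.2, crystal cell markers to 2249.6 and Hsp genes to 3779.6. With powers chosen over all 6 samples it came for late plasmatocyte genes to 19.2, crystal cell markers to 327 and Hsp genes to 2271, and 1 of 10650 genes kept both ways had another power. In RPM, which no longer divide by length, the 25 highest genes held 21.4% and ribosomal protein genes 33.9%, and the median CV was 15.6%. Means were 108 for srp, 1211 for Pxn, 1487 for vkg, 2199 for Col4a1 and 685 for crq. Sums came for identity markers to 21967, blood cell transcription factors to 1647, engulfment receptors to 20114, basement membrane and matrix to 11414, collagen making and secretion to 20877, late plasmatocyte genes to 42.2, crystal cell markers to 105, lamellocyte markers to 12.6, guidance and migration to 18636, adhesion to 671, lysosome and degradation to 4415, antimicrobial peptides to 21.9, cell cycle to 1098, neuron markers to 156, neuroblast markers to 29.7, glia markers to 481, muscle and mesoderm markers to 149, epidermis and trachea markers to 73.1, amnioserosa markers to 103, midgut markers to 10.8, germline markers to 13.8, dosage compensation to 488, Hsp genes to 2044 and vacuolar ATPase to 3619.5. Pearson's r was 0.925 with a pseudocount of 0.1, 0.984 with 5 and 0.960 over genes at 1 TPM or more. The median CV was 20.4% at 1 TPM or more and 9.84% at 100 TPM or more. Protein-coding genes numbered 3699 at 10 TPM or more. TMM factors were 1.047, 0.9777 and 0.9773 and, like a minimum of 10 reads, moved no result by more than that. With each sample left out in turn and the powers chosen again, the share of the 25 highest genes lay between 32.1% and 32.2%. The r lay between 0.968 and 0.972 and the median CV between 10.7% and 12.4%. This r is that of a single pair and this CV rests on fewer values, so neither compares directly with the value over all 3 samples. Without the third sample, the mean of Col4a1 was 336 TPM, that of vkg 202 TPM and the sum of late plasmatocyte genes 0.903 TPM. No paired analysis was possible because a single group is described and no test was run. With 3 samples an SD is itself uncertain, genes under 1 TPM rest on few reads, and a listed 0 does not show that a gene was silent. Genes that differed near 10-fold between samples were set aside or could be restored wrongly, so the spread given for the rest is a low estimate.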

Other observations

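Noncoding genes were outside the counts above. The highest were picked out after their values were seen. MRE16, which the later annotation names lncRNA:CR34335, had 57955, 51821 and 35903 TPM, close to RpL41 in the first and the second sample, with the third value placed 1 power up at a probability of 0.911. The pseudogene 18SrRNA-Psi:CR41602 had 12668, 9351 and 15534 TPM and 28SrRNA-Psi:CR45859 had 156, 96.4 and 197 TPM, and reads of ribosomal RNA itself may be placed on such copies. Uhg7, a host gene of small nucleolar RNAs, had 575, 729 and 875 TPM, and CR43701 and CR42549 averaged 424 ± 106 TPM and 210.3 ± 34.3 TPM (SD, n = 3 each).

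Of the dosage compensation genes, which raise transcription from the X chromosome in males, all 7 had reads in every sample, with sums of 133, 138 and 127 TPM. The noncoding RNA roX1 had 82.6, 87.5 and 72.5 TPM and roX2 had 14.0, 17.0 and 24.3 TPM. The helicase gene mle averaged 13.7 ± 2.40 TPM, and msl-2, whose protein is made in males, averaged 1.75 ± 0.61 TPM (SD, n = 3 each).

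All 13 mitochondrially encoded genes were listed at 0 in every sample, so the shares of TPM above are of a total without them. Whether reads of these genes were counted is not given in the sources used here. Of 118 histone genes, 109 were listed at 0 and 8 had reads in every sample, with sums of 2338, 2546 and 2413 TPM, and most histone genes lie in near-identical copies. Genes with an Hsp name, without the pair set aside, summed to 1075, 1069.8 and 787 TPM.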
